A study of Mus musculus with 7 samples.

Results

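The genes for collagen chains, laminin chains and integrin subunits, with fibronectin (*Fn1*) and the receptors for platelet-derived growth factor (PDGF) *Pdgfra* and *Pdgfrb*, were followed in the total RNA of prospermatogonia, the male germ cells of the fetal testis. They were chosen by symbol alone: Col, a number, a and a number; any symbol beginning with Itga or Itgb; Lama, Lamb or Lamc and a digit; and the last 3 names. This gave 83 of the 20643 genes in the table, namely 43 collagen chains, 23 integrin subunits, 11 laminin chains, *Fn1*, both PDGF receptors and 3 genes named for integrin binding that code for no subunit (*Itgb3bp*, *Itgb1bp1* and *Itgb1bp2*). Another 6 symbols of the annotation fit the same rule and were not analysed here (*Col10a1*, *Itgam*, *Itgax*, *Itgb2l*, *Itgb6* and *Itgbl1*).

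The germ cells came from fetuses labelled 15 dpc in the source name and 15.5 dpc in the protocol. Those of H19Ter+neo/H19Ter+neo fetuses (replicates 5, 6 and 7, here H19Ter+neo) carry, on both alleles, a transcription terminator next to the *H19/Igf2* imprinting control region together with the Pgkneo selection cassette. Those of H19Ter/H19Ter fetuses (replicates 3 and 4, here H19Ter) carry the terminator after Pgkneo had been removed by a cross to Hprt-Cre mice, and WT (replicates 1 and 2) carry neither. The alleles were made in 129 embryonic stem cells and descend from chimeras of 1 cell line, so both mutants trace back to the same targeting event. The mutant lines were crossed to the *Pou5f1*-EGFP transgene of the TgOG2 line (B6;CBA background), EGFP+ cells were sorted from trypsin digests that pooled testes, and the strain makeup, the litters and the parents of the WT fetuses are not given by library in the sources used here. Differences in strain background between the groups were not tested, and p-values measure the spread between these libraries only.

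Collagens are long proteins of coiled chains: fibrillar collagens form the fibres of connective tissue, and collagen IV forms the mesh of basement membranes. Laminins are cross-shaped proteins of an alpha, a beta and a gamma chain that polymerise in the same sheets, and fibronectin is a soluble and cell-bound matrix protein. Integrins are membrane receptors of an alpha and a beta subunit that tie these proteins to the cytoskeleton. In the fetal testis germ cells lie with Sertoli cells inside cords wrapped by a basement membrane, and peritubular, Leydig and other stromal cells outside the cords make most fibrillar collagen.

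Levels are given as CPM, the read pairs of a gene per M of a scaled library total, recovered from the deposited log2 table. The scaled totals were not the counted totals. Relative to CPM by counted total, log2 values were shifted by -0.0571 and -0.0461 in H19Ter and by 0.0104 and 0.0447 in WT. In H19Ter+neo the shifts were 0.0448, -0.0133 and 0.0166. Scaling to the same total per library, used below as an alternative, removes these shifts. Levels were compared as differences of mean log2 CPM with their standard error (SE) and limma's adjusted p. A gene is called at an adjusted p under 0.05. The libraries held 84.1 to 87.3 M read pairs counted to genes in H19Ter+neo, 37.5 to 51.2 M in H19Ter and 45.1 to 45.9 M in WT. No member was at 0 in any library, and the lowest value was 5 read pairs. The sorted cells expressed germ cell genes throughout: 12 of 12 listed markers, led by *Dazl*, summed to 4680.2 to 4821.6 CPM in H19Ter+neo, 4027.6 to 4147.8 CPM in H19Ter and 4265.0 to 4487.3 CPM in WT. Of 62 listed somatic markers 45 had a value and the rest were not analysed here. None of the 45 was at 0 in any library. *Ptch1*, of the interstitial and peritubular list, had 195.7 to 234.0 CPM in H19Ter+neo, 294.1 to 295.3 CPM in H19Ter and 354.2 to 355.0 CPM in WT, and the others were at or below 26.9 CPM in every library. In bulk RNA, fewer cells of a type and less RNA per cell cannot be told apart.

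More of the matrix genes were higher than lower in each mutant. In H19Ter+neo against WT, 47 of 83 members were higher (background over all genes 27.7%) and 13 lower (26.7%), and the median difference was 0.59 on the log2 scale, against 0.01 over all genes. In H19Ter against WT, 36 were higher (14.1%) and 7 lower (11.0%), with a median of 0.56 against -0.01. Between the mutants, H19Ter+neo against H19Ter, 7 were higher (12.5%) and 9 lower (15.2%), with a median of 0.02 against 0.01, so both shares were below those over all genes. The first pair of comparisons shares its WT libraries.

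Fewer calls held when each of the 7 libraries was left out in turn, among the members and over all genes. In H19Ter+neo against WT 32 members held higher (38.6%, against 16.6% of all genes) and 8 lower (9.64%, against 16.3%). In H19Ter against WT it was 17 (20.5%, against 4.14%) and 1 (1.2%, against 1.24%), and between the mutants 3 and 3 (3.61% each, against 2.94% and 5.39%). Without WT replicate 2 or H19Ter replicate 3, the members called higher in H19Ter than in WT numbered 18 and 19, and the share of all genes called higher was 5.34% and 7.12%. Below, a call ended by leaving out a library is given with that library, the difference and the adjusted p without it.

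Matrix genes are long, and a larger share of long genes was called higher over the whole table too. Members span a median of 80.8 kb, against 25.6 kb over protein-coding genes. Of genes spanning at least 100 kb, 64.1% of members and 44.4% of all genes were higher in H19Ter+neo than in WT, and 51.3% and 29.8% in H19Ter. Under 100 kb the shares were 50.0% and 25.5% in H19Ter+neo and 36.4% and 12.1% in H19Ter. By level, below a mean log2 CPM of 4 the shares called higher were 60.3% of members and 32.1% of all genes in H19Ter+neo, and 42.9% and 17.5% in H19Ter. At 4 or above stood 20 members, and there as many were lower as higher in H19Ter+neo: 45.0% each, against 20.5% of all genes higher and 39.7% lower, with a median of -0.10 against -0.11. In H19Ter 45.0% of these 20 were higher and 20% lower, against 8.59% and 18.9% of all genes. The part of span and level in the members' results was not tested.

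**Figure D1:**
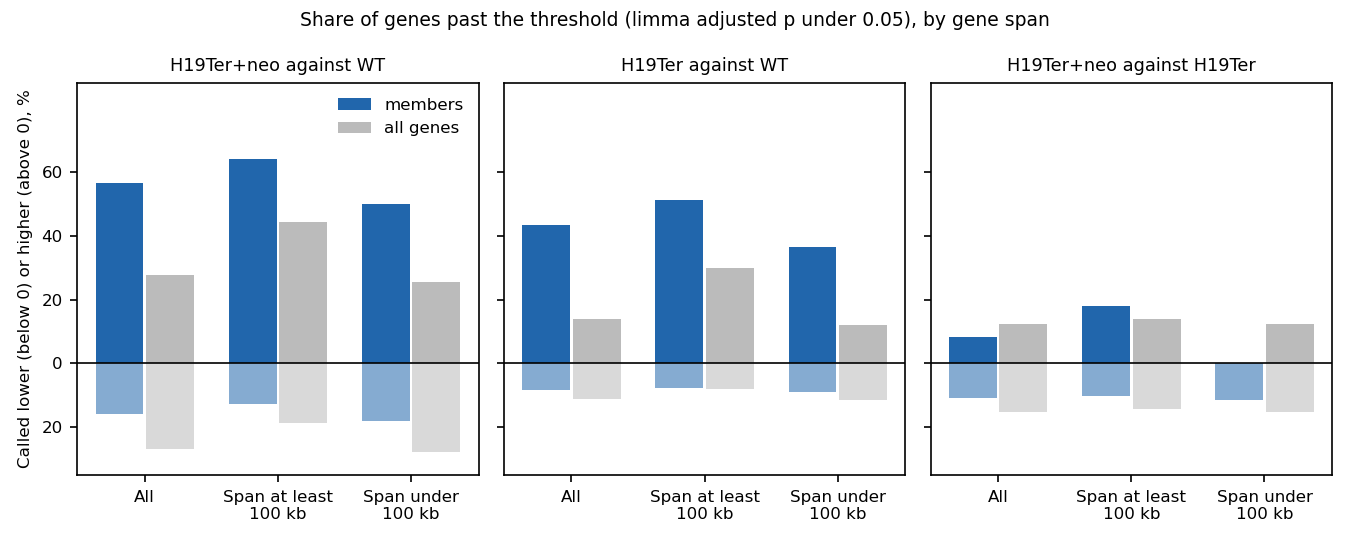
Share of members (blue) and of all genes (grey) called higher (above 0) or lower (below 0) in each comparison, for all genes, genes spanning at least 100 kb and shorter ones. Against WT the members' share called higher lies above that of all genes in each span class, for example 64.1% against 44.4% of long genes in H19Ter+neo.

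Among the laminin chains with the highest mean log2 CPM, *Lamb1* passed in no comparison and *Lamc1* was lower in H19Ter+neo. *Lamb1* (chromosome 12, 31265234 to 31329644, GRCm38), the beta chain of the common laminins, had 489.2, 499.5 and 516.0 CPM in H19Ter+neo, 486.0 and 496.5 CPM in H19Ter and 520.1 and 488.8 CPM in WT. Its groups overlapped in all 3 comparisons, with differences of -0.01 (SE 0.05) in H19Ter+neo and -0.04 (SE 0.06) in H19Ter. Between the mutants it passed only with the GC content and length trends removed (0.16, adjusted p = 0.0451). Per kb of exon it stood at 50.6, 49.5 and 50.9 CPM in H19Ter+neo, H19Ter and WT. The main gamma chain *Lamc1* had 112.2, 117.7 and 122.4 CPM in H19Ter+neo, 152.0 and 155.8 CPM in H19Ter and 131.7 and 137.5 CPM in WT, so that H19Ter+neo lay lowest and H19Ter highest with no overlap. It was lower in H19Ter+neo than in H19Ter (-0.39, SE 0.06, limma adjusted p = 0.00152) and than in WT (-0.20, adjusted p = 0.0193, ended without WT replicate 2 at -0.17, adjusted p = 0.139). In H19Ter against WT it did not pass (0.19, adjusted p = 0.0576), and passed without H19Ter+neo replicate 5 (0.19, adjusted p = 0.0424) or 7 (0.19, adjusted p = 0.0418).

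**Figure D2:**
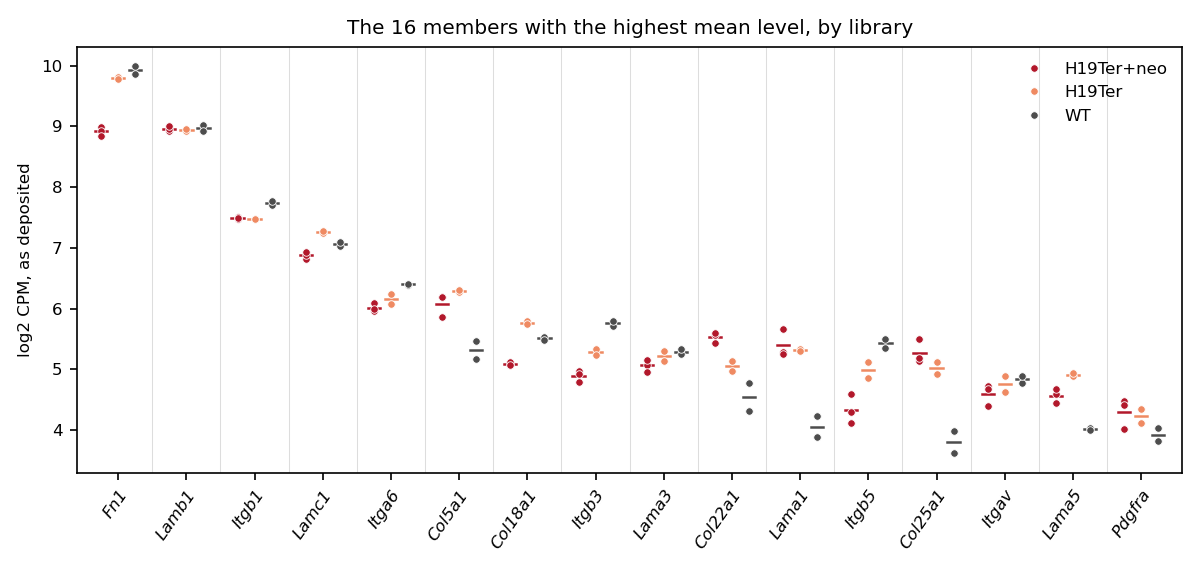
Log2 CPM of the 16 members with the highest mean level (points are libraries, bars group means), in H19Ter+neo, H19Ter and WT. *Fn1* is lowest in all H19Ter+neo libraries, *Lamb1* overlaps between the groups, and *Lama1*, *Col5a1* and *Col25a1* are lowest in both WT libraries.

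Laminin alpha chains, which give each laminin its receptor binding, were higher in 3 of 5 genes in each mutant. Over all genes 27.7% were higher in H19Ter+neo and 14.1% in H19Ter. Of the 5 chains, 1 was lower in H19Ter+neo and 0 in H19Ter, against 26.7% and 11.0% of all genes. Higher calls of 2 of the 5 held without each library in each mutant, against 16.6% and 4.14% of all genes. *Lama1* (chromosome 17, 67697259 to 67822647), the alpha chain of the first laminin laid down in the embryo, had 39.0, 38.2 and 50.7 CPM in H19Ter+neo, 40.5 and 39.8 CPM in H19Ter and 18.7 and 14.8 CPM in WT. Every mutant library lay above both WT libraries, with a difference of 1.34 (SE 0.13, limma adjusted p = 3.57e-05) in H19Ter+neo and 1.27 (SE 0.15, adjusted p = 0.000709) in H19Ter. *Lama5*, the alpha chain found widely in mature basement membranes, had 21.7, 24.0 and 25.4 CPM in H19Ter+neo, 29.5 and 30.6 CPM in H19Ter and 16.4 and 15.9 CPM in WT, so its order was H19Ter, H19Ter+neo, WT with no overlap. It was higher by 0.55 (SE 0.09) in H19Ter+neo and by 0.89 (SE 0.10) in H19Ter, and lower in H19Ter+neo than in H19Ter (-0.35, limma adjusted p = 0.017, ended without H19Ter replicate 3 at -0.37, adjusted p = 0.082, and without replicate 4 at -0.32, adjusted p = 0.111). Removing the trends with GC content and length also ended that last call (-0.16, adjusted p = 0.207). *Lama2*, the muscle laminin chain, was higher by 1.05 (SE 0.27) in H19Ter+neo and 0.93 (SE 0.30) in H19Ter. The first call ended without WT replicate 2 (0.98, adjusted p = 0.066), the second without WT replicate 1 (0.99, adjusted p = 0.106), WT replicate 2 (0.86, adjusted p = 0.211) or H19Ter replicate 3 (0.51, adjusted p = 0.292).

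*Lamb3* and *Lama3*, chains that join in epithelial laminin, moved in opposite directions in H19Ter+neo. The beta chain *Lamb3*, at a mean log2 CPM of 0.26, had 1.73, 1.06 and 2.02 CPM in H19Ter+neo, 2.01 and 2.19 CPM in H19Ter and 0.447 and 0.382 CPM in WT, and was higher by 1.83 (SE 0.29) and 2.26 (SE 0.31). The alpha chain *Lama3* ran from 31.2 to 35.6 CPM in H19Ter+neo, 35.2 to 39.5 CPM in H19Ter and 38.3 to 40.2 CPM in WT. It was lower only in H19Ter+neo (-0.23, SE 0.09, adjusted p = 0.0434), a call that stood in the fit without H19Ter+neo replicate 7 and ended in the fits without WT replicates 1 and 2, H19Ter replicates 3 and 4 and H19Ter+neo replicates 5 and 6 (-0.26 to -0.18, adjusted p = 0.0503 to 0.211). *Lamb2* was higher in H19Ter+neo by 0.59 (SE 0.12, adjusted p = 0.00229), and *Lama4* passed in neither mutant. The log2 ratio of *Lama1* to *Lamb1* was -3.57 ± 0.19 (SD, n = 3) in H19Ter+neo, -3.61 ± 0.04 (n = 2) in H19Ter and -4.92 ± 0.17 (n = 2) in WT.

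**Figure D3:**
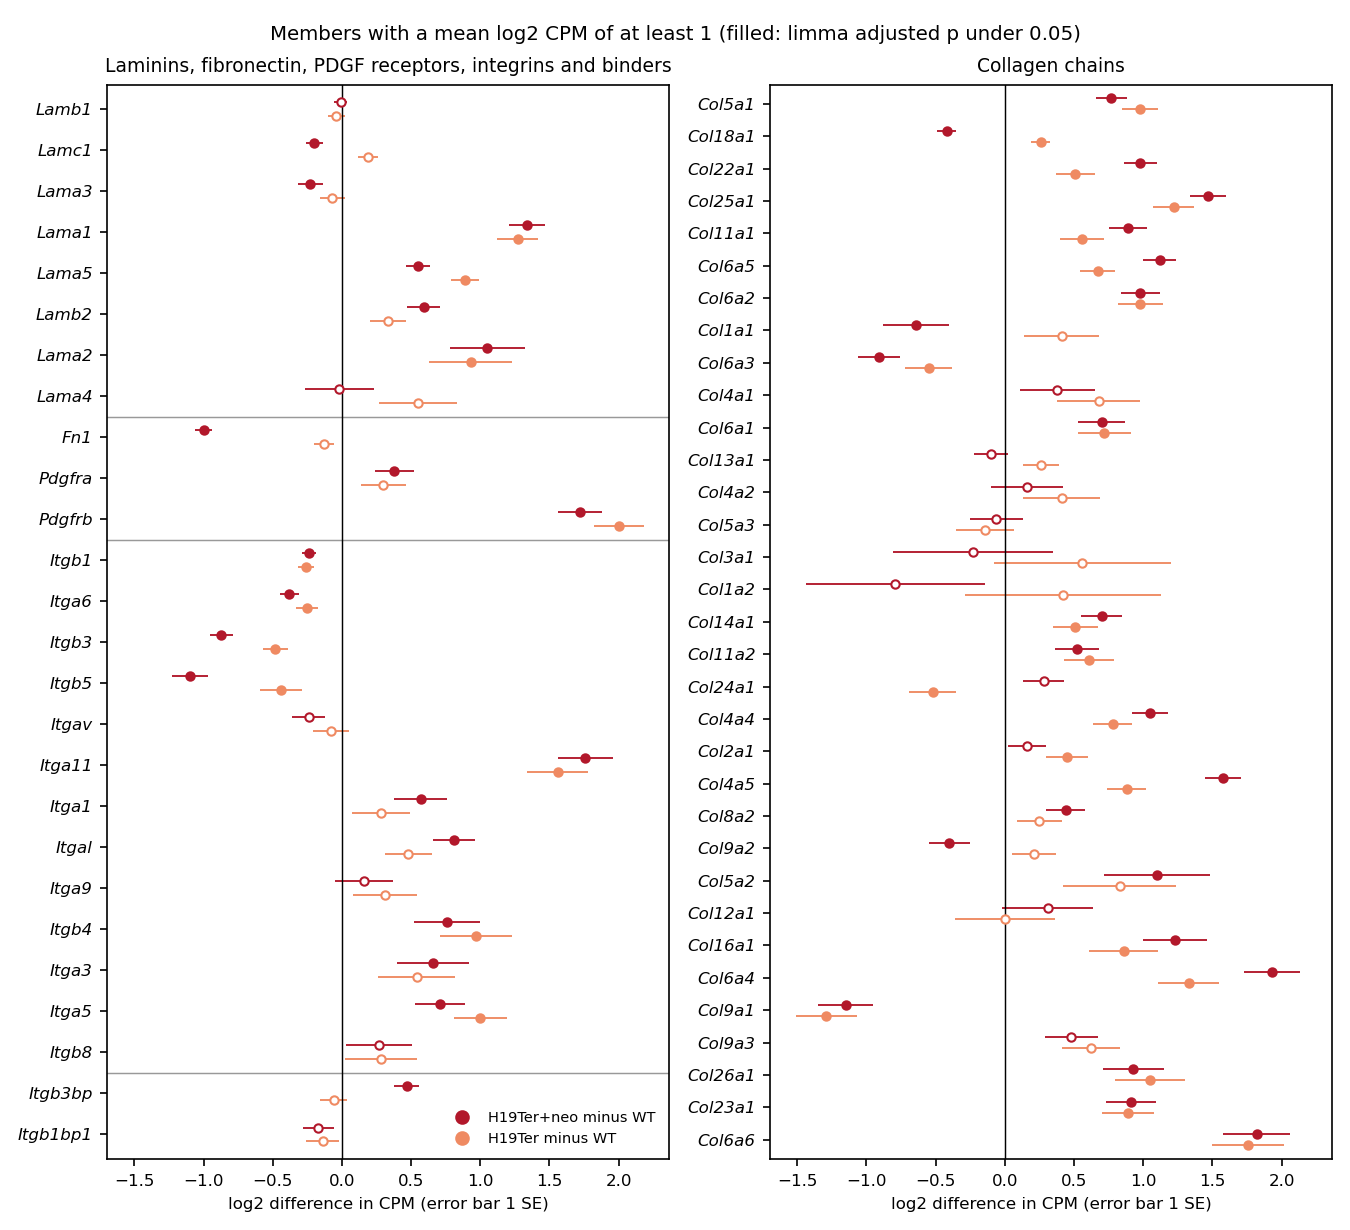
Log2 difference from WT (point, with 1 SE) in H19Ter+neo and H19Ter of 59 of the 60 members with a mean log2 CPM of at least 1, by family and in order of level. Filled points passed the test. *Pdgfrb*, *Itga11*, *Col6a4* and *Col6a6* lie farthest to the right, and *Col9a1*, *Itgb5* and *Fn1* in H19Ter+neo farthest to the left.

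Collagen IV comes as chain pairs whose genes lie head to head, and the pairs differed. *Col4a1* and *Col4a2*, the common chains, start 21 bases apart on chromosome 8. *Col4a3* and *Col4a4*, chains of the kidney filter, start 72 bases apart on chromosome 1, and *Col4a5* and *Col4a6* start 1309 bases apart on chromosome X. The 300 bases around the start (250 before it, 50 after it) are shown because the paired genes are read outward from neighbouring starts. The windows of *Col4a1* and *Col4a2* overlap, those of *Col4a5* and *Col4a6* do not, and no window is shown for *Col4a3*. They are RefSeq windows on GRCm38.p6, written 5′ to 3′ along the strand of each gene, and 57 of 83 members matched that table. Capitals mark a CCAAT box, whose letters are its name, on either strand. They also mark a GC box, GGGCGG, on either strand, so a match on the other strand is shown as its reverse complement. TATAAA was searched in the same way and occurs in none of these windows.
Col4a1, chr8:11312777-11313076, minus strand: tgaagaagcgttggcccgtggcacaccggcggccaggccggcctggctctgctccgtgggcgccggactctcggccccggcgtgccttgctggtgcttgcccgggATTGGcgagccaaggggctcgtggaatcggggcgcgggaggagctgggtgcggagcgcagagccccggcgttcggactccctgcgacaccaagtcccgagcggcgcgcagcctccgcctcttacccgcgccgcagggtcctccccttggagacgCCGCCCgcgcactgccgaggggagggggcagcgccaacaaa
Col4a2, chr8:11312555-11312854, plus strand: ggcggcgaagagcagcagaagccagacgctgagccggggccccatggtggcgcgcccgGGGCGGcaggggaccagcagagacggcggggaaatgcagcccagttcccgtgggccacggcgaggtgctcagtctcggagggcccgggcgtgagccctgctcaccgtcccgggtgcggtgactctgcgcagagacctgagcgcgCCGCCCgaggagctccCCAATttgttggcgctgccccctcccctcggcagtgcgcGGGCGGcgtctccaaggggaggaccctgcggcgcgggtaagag
Col4a4, chr1:82586800-82587099, minus strand: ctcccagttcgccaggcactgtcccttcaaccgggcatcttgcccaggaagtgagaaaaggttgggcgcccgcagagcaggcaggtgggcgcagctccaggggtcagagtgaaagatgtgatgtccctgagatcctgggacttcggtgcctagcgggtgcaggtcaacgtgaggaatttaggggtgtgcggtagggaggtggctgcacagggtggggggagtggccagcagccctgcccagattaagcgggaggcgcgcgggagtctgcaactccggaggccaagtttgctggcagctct
Col4a5, chrX:141475169-141475468, plus strand: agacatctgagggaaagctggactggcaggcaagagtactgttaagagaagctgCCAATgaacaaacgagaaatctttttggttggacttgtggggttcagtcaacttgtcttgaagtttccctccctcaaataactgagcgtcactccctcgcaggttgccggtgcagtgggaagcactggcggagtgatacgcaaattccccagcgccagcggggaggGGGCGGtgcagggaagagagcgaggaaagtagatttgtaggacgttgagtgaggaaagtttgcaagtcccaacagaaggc
Col4a6, chrX:141474027-141474326, minus strand: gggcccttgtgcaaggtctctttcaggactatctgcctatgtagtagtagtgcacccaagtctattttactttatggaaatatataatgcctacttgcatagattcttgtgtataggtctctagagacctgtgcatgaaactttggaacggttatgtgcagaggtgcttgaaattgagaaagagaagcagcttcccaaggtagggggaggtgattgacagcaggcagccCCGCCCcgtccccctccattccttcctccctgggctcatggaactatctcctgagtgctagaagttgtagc

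The windows of *Col4a1* and *Col4a2* are the richest in G and C of the 5 (74.0% and 73.7%), against 63.3% for *Col4a4*, 52.7% for *Col4a5* and 48.3% for *Col4a6*. A GC box match occurs 1 time in *Col4a1*, 3 times in *Col4a2* and 1 time each in *Col4a5* and *Col4a6*, and a CCAAT match 1 time each in *Col4a1*, *Col4a2* and *Col4a5*. The GC box match of *Col4a1* is the same site as the last one of *Col4a2*, read on the other strand. Over 32851 windows of the same length in the table, 35.7% hold GGGCGG, 37.4% hold CCAAT and 13.6% hold TATAAA on either strand. A match is a run of letters, not a bound site.

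The minor collagen IV chains were higher in H19Ter+neo, and all but *Col4a3* in H19Ter, while the common chains were not called. *Col4a5* (141475385 to 141689234 on chromosome X) had 8.36, 7.52 and 8.35 CPM in H19Ter+neo, 5.15 and 4.80 CPM in H19Ter and 2.75 and 2.63 CPM in WT. The 3 genotypes stood apart with no overlap, and all 3 comparisons passed without any of the 7 libraries: 1.58 (SE 0.13, limma adjusted p = 1.54e-05) in H19Ter+neo, 0.88 (SE 0.14, adjusted p = 0.00271) in H19Ter and 0.70 (SE 0.13, adjusted p = 0.0036) between the mutants. *Col4a4* had 7.74, 8.02 and 8.68 CPM in H19Ter+neo, 6.42 and 7.15 CPM in H19Ter and 4.13 and 3.73 CPM in WT, and was higher by 1.05 (SE 0.13) and 0.78 (SE 0.14). Their partners, at lower levels, were higher in H19Ter+neo, *Col4a3* by 1.30 (SE 0.25) and *Col4a6* by 1.09 (SE 0.25). In H19Ter, *Col4a3* did not pass (0.80, adjusted p = 0.054, passed without H19Ter replicate 4 at 1.17, adjusted p = 0.029). *Col4a6* did (0.86, adjusted p = 0.0421), a call ended without WT replicate 2, H19Ter replicate 3 or 4, or H19Ter+neo replicate 6 or 7 (0.57 to 0.94, adjusted p = 0.0522 to 0.245).

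*Col4a1* had 19.6, 12.2 and 12.2 CPM in H19Ter+neo, 24.8 and 12.3 CPM in H19Ter and 11 and 10.9 CPM in WT. Replicate 5 in H19Ter+neo and replicate 3 in H19Ter stood above their own group while the rest lay close to WT, and the differences of 0.38 (SE 0.27) and 0.68 (SE 0.30) did not pass. *Col4a1* passed in H19Ter without replicate 4 (1.18, adjusted p = 0.0274) and when only the 2 genotypes were fitted (0.68, adjusted p = 0.026). *Col4a2* had the same 2 high libraries (11.1 CPM in replicate 5 and 13.4 CPM in replicate 3, 6.63 to 8.36 CPM in the other 5) and passed in no comparison. The log2 ratio of *Col4a2* to *Col4a1* within libraries was -0.78 ± 0.05 (SD, n = 3) in H19Ter+neo and -0.82 ± 0.10 (n = 2) in H19Ter. In WT the ratio spread more, at -0.55 ± 0.25 (n = 2).

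**Figure D4:**
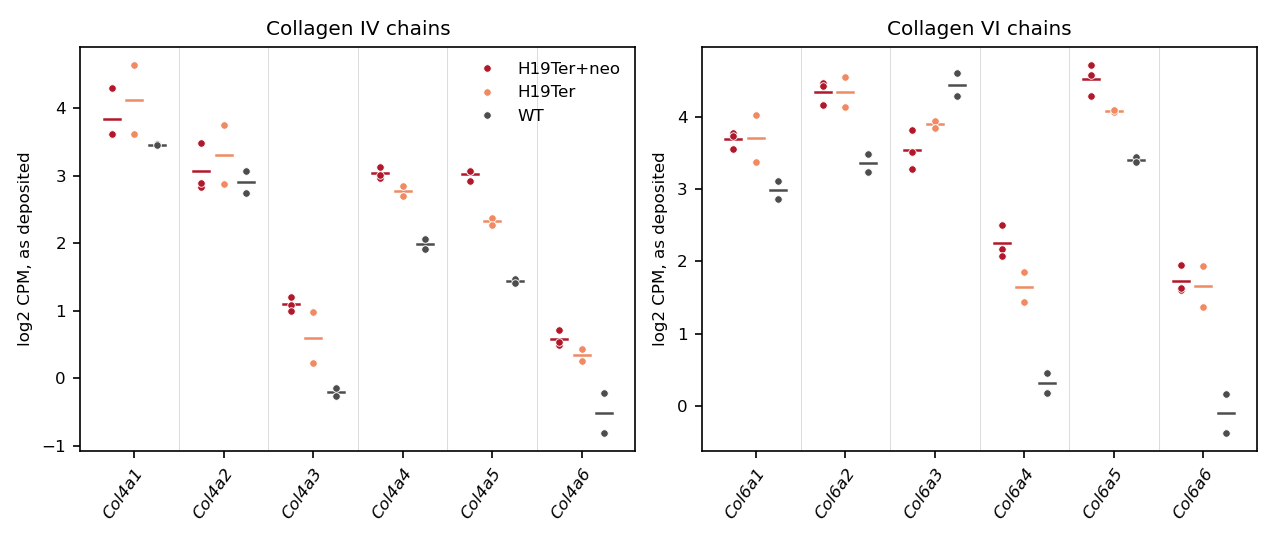
Log2 CPM of the collagen IV chains (left) and collagen VI chains (right) by library (points) with group means (bars), in H19Ter+neo, H19Ter and WT. *Col4a3* to *Col4a6* are lowest in WT while *Col4a1* and *Col4a2* spread widely within the mutants, and *Col6a3* is the collagen VI chain that is highest in WT.

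Collagen VI forms beaded filaments near basement membranes from an alpha 1, an alpha 2 and a last chain that can be alpha 3, 4, 5 or 6. Its chains were called in both mutants without exception, 5 higher and *Col6a3*, the usual last chain, lower (83.3% and 16.7% in each). The shares over all genes were 27.7% and 26.7% in H19Ter+neo and 14.1% and 11.0% in H19Ter. *Col6a3* had 14.0, 11.3 and 9.71 CPM in H19Ter+neo, 15.3 and 14.4 CPM in H19Ter and 19.5 and 24.4 CPM in WT, all mutant libraries below WT. It was lower by -0.91 (SE 0.15, limma adjusted p = 0.000685) in H19Ter+neo and by -0.55 (SE 0.17, adjusted p = 0.0364) in H19Ter, the second ended without WT replicate 2 (-0.39, adjusted p = 0.262), H19Ter replicate 3 (-0.60, adjusted p = 0.101) or 4 (-0.51, adjusted p = 0.163), and with the same total per library (-0.48, adjusted p = 0.0552). Between the mutants it did not pass (-0.36, adjusted p = 0.106) and did without H19Ter+neo replicate 5 (-0.50, adjusted p = 0.0169). The log2 ratio of *Col6a3* to *Col6a1* was -0.15 ± 0.26 (SD, n = 3) in H19Ter+neo, 0.19 ± 0.40 (n = 2) in H19Ter and 1.46 ± 0.41 (n = 2) in WT.

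The other collagen VI chains moved the opposite way from *Col6a3*. *Col6a2* had 21.9, 17.9 and 21.4 CPM in H19Ter+neo, 23.4 and 17.5 CPM in H19Ter and 11.1 and 9.43 CPM in WT, and rose by 0.98 in both (SE 0.14 and 0.16). Its neighbour on chromosome 10, *Col6a1*, rose by 0.70 (SE 0.17) in H19Ter+neo, ended without WT replicate 2 (0.58, adjusted p = 0.0741), and by 0.72 (SE 0.19) in H19Ter, ended without WT replicate 2 (0.60, adjusted p = 0.164) or H19Ter replicate 3 (0.39, adjusted p = 0.147). *Col6a6*, *Col6a5* and *Col6a4* lie next to each other on 1 strand of chromosome 9 and code for chains that can stand in for *Col6a3*. *Col6a5* had 19.5, 23.9 and 26.2 CPM in H19Ter+neo, 16.8 and 16.9 CPM in H19Ter and 10.8 and 10.3 CPM in WT. *Col6a4* had 4.48, 4.19 and 5.61 CPM in H19Ter+neo, 3.59 and 2.68 CPM in H19Ter and 1.34 and 1.10 CPM in WT. *Col6a6* had 2.99, 3.06 and 3.82 CPM in H19Ter+neo, 3.81 and 2.55 CPM in H19Ter and 1.09 and 0.741 CPM in WT. For all 3 genes each mutant library lay above both WT libraries.

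In H19Ter+neo these 3 neighbours rose by 1.12 (*Col6a5*, SE 0.12), 1.93 (*Col6a4*, SE 0.20) and 1.82 (*Col6a6*, SE 0.24), and in H19Ter by 0.67 (SE 0.13), 1.33 (SE 0.22) and 1.76 (SE 0.26). The H19Ter call of *Col6a5* ended without WT replicate 2 (0.64, adjusted p = 0.06). *Col6a5* and *Col6a4* were also higher in H19Ter+neo than in H19Ter. For *Col6a5* (0.45, adjusted p = 0.0207) this ended without H19Ter replicate 3 (0.44, adjusted p = 0.113) or 4 (0.45, adjusted p = 0.0966) or H19Ter+neo replicate 6 (0.42, adjusted p = 0.0552), and for *Col6a4* (0.60, adjusted p = 0.0477) without any 1 of the 7 libraries (0.39 to 0.81, adjusted p = 0.052 to 0.293). Per kb of exon, *Col6a5* stood at 2.46, 1.79 and 1.12 CPM in H19Ter+neo, H19Ter and WT, against 0.978, 1.24 and 1.83 CPM for *Col6a3*.

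Of 11 fibrillar collagens, 5 were higher and 1 lower than in WT in each mutant (45.5% and 9.09%), with a median of 0.28 in H19Ter+neo and 0.56 in H19Ter. All genes stood at 27.7% higher and 26.7% lower in H19Ter+neo, and at 14.1% and 11.0% in H19Ter. *Col5a1* (chromosome 2, 27886425 to 28039514), which regulates fibre diameter, had 57.9, 73.2 and 73.1 CPM in H19Ter+neo, 77.8 and 78.7 CPM in H19Ter and 43.9 and 36.0 CPM in WT. It rose by 0.77 (SE 0.11, limma adjusted p = 0.000339) in H19Ter+neo and 0.98 (SE 0.13, adjusted p = 0.00101) in H19Ter, without any library changing the call. Its partner *Col5a2* had 6.24, 3.99 and 5.66 CPM in H19Ter+neo, 7.48 and 2.48 CPM in H19Ter and 2.08 and 2.79 CPM in WT. It rose in H19Ter+neo (1.10, SE 0.38, adjusted p = 0.0302), a call ended without WT replicate 1 (0.90, adjusted p = 0.174) or 2 (1.31, adjusted p = 0.07) or H19Ter+neo replicate 5 (0.97, adjusted p = 0.0545) or 7 (1.04, adjusted p = 0.058). In H19Ter it did not pass (0.83, adjusted p = 0.164) and passed without replicate 4 (1.62, adjusted p = 0.0145), and without replicate 3 it was higher in H19Ter+neo than in H19Ter (1.06, adjusted p = 0.0428). The cartilage-type chains *Col11a1* and *Col11a2* were higher in H19Ter+neo by 0.89 (SE 0.14) and 0.52 (SE 0.16). *Col11a2* ended without WT replicate 2 (0.29, adjusted p = 0.225) or H19Ter+neo replicate 7 (0.41, adjusted p = 0.0623). In H19Ter they were higher by 0.56 (SE 0.16) and 0.61 (SE 0.18), each ended without WT replicate 2 (0.37, adjusted p = 0.227, and 0.38, adjusted p = 0.245), H19Ter replicate 3 (0.63, adjusted p = 0.0748, and 0.55, adjusted p = 0.142) or 4 (0.49, adjusted p = 0.151, and 0.66, adjusted p = 0.101).

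*Col24a1*, a fibrillar chain of developing bone and cornea, differed most between the mutants among the members higher in H19Ter+neo with a mean log2 CPM of at least 1. It had 6.65, 8.72 and 9.36 CPM in H19Ter+neo, 4.79 and 4.57 CPM in H19Ter and 6.61 and 6.83 CPM in WT. H19Ter lay lowest with no overlap: 0.80 (SE 0.15, limma adjusted p = 0.0043) for H19Ter+neo against H19Ter, a call that held without each library. Against WT, H19Ter was lower (-0.52, SE 0.17, adjusted p = 0.0455), which ended without WT replicates 1 and 2, H19Ter replicates 3 and 4 or H19Ter+neo replicate 6 (-0.55 to -0.49, adjusted p = 0.0606 to 0.197). H19Ter+neo did not pass against WT (0.28, adjusted p = 0.146) and did without replicate 5 (0.43, adjusted p = 0.019).

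*Col1a2* and *Col3a1*, with *Col1a1* the main collagens of connective tissue, spread widely between libraries of the same mutant genotype. *Col1a2* had 14.5, 3.65 and 2.44 CPM in H19Ter+neo replicates 5, 6 and 7, 20.6 and 6.73 CPM in H19Ter replicates 3 and 4, and 7.10 and 10.8 CPM in WT. *Col3a1* had 13.8, 4.94 and 3.92 CPM in H19Ter+neo, 22.8 and 5.55 CPM in H19Ter and 6.39 and 9.03 CPM in WT. Both were highest in H19Ter replicate 3 and next in H19Ter+neo replicate 5, and neither passed in any comparison. Without H19Ter+neo replicate 5, *Col1a2* was lower in H19Ter+neo than in WT (-1.54, adjusted p = 0.00701) and than in H19Ter (-1.97, adjusted p = 0.00474). *Col1a1* had 14.9, 10.8 and 9.96 CPM in H19Ter+neo, 33.7 and 17.5 CPM in H19Ter and 16.9 and 19.6 CPM in WT, so every H19Ter+neo library lay below every other. It was lower in H19Ter+neo than in H19Ter (-1.05, SE 0.24, adjusted p = 0.0106, ended without H19Ter replicate 3 at -0.58, adjusted p = 0.107) and than in WT (-0.64, SE 0.24, adjusted p = 0.0463). The call against WT ended without WT replicate 1 (-0.75, adjusted p = 0.0952) or 2 (-0.53, adjusted p = 0.231) or H19Ter+neo replicate 6 (-0.58, adjusted p = 0.106) or 7 (-0.52, adjusted p = 0.107), and H19Ter passed above WT without its replicate 4 (0.88, adjusted p = 0.0417).

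The same 2 libraries were high in markers of several somatic cell types. With the gap set at 0.5 on the log2 scale after the values were seen, 6 members were higher by that much in H19Ter replicate 3 than in 4 and in H19Ter+neo replicate 5 than in 6 and 7: *Col12a1*, *Col1a2*, *Col3a1*, *Col4a1*, *Col4a2* and *Itga4*. They are 7.23% of members, against 0.809% of all genes (167 genes). The Leydig cell list (6 of 8 markers with a value) summed to 56.8 CPM in replicate 5 against 28.8 to 31.7 CPM in replicates 6 and 7, and to 44.9 CPM in replicate 3 against 31.7 CPM in replicate 4, with WT at 31.4 and 35.9 CPM. Most of it was *Fdx1* in the other 5 libraries. Without *Fdx1* the list was at 29.8 CPM in replicate 5 against 7.31 and 5.46 CPM in 6 and 7, and at 26.0 CPM in replicate 3 against 11.1 CPM in 4, with WT at 11.6 and 15.2 CPM. *Cyp17a1*, a steroidogenic enzyme of those cells, had 10.4, 1.40 and 0.649 CPM in H19Ter+neo, 8.40 and 2.14 CPM in H19Ter and 3.24 and 4.74 CPM in WT. The interstitial and peritubular list (15 of 16) summed to 212.3 to 255.3 CPM in H19Ter+neo, 318.6 to 340.7 CPM in H19Ter and 385.2 to 390.6 CPM in WT, most of it *Ptch1*. Without *Ptch1* it was 35.3 CPM in replicate 5 against 16.6 and 21.3 CPM in 7 and 6, and 45.3 CPM in replicate 3 against 24.5 CPM in 4, with WT at 31.0 and 35.6 CPM. The summed list of Sertoli cells, which lie inside the cords (11 of 12), was also highest in these libraries, at 27.8 CPM in replicate 5 against 19.7 and 21.0 CPM in 6 and 7, and 31.7 CPM in replicate 3 against 26.3 CPM in 4, with WT at 23.5 and 23.9 CPM. Not every gene of that list followed its sum. *Sox9* had 4.28 CPM in replicate 5 against 5.04 and 5.62 CPM in 6 and 7, and 7.27 CPM in replicate 3 against 7.48 CPM in 4. The part of these cells in the 6 members was not tested. Leaving out both libraries together, an alternative added after seeing the data, gave 46 higher and 12 lower members in H19Ter+neo (27.0% and 26.2% of all genes), 24 and 6 in H19Ter (9.67% and 7.48%), and 5 and 6 between the mutants (5.01% and 7.34%). *Col3a1* was then lower in H19Ter+neo than in WT (-0.78, adjusted p = 0.00599).

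**Figure D5:**
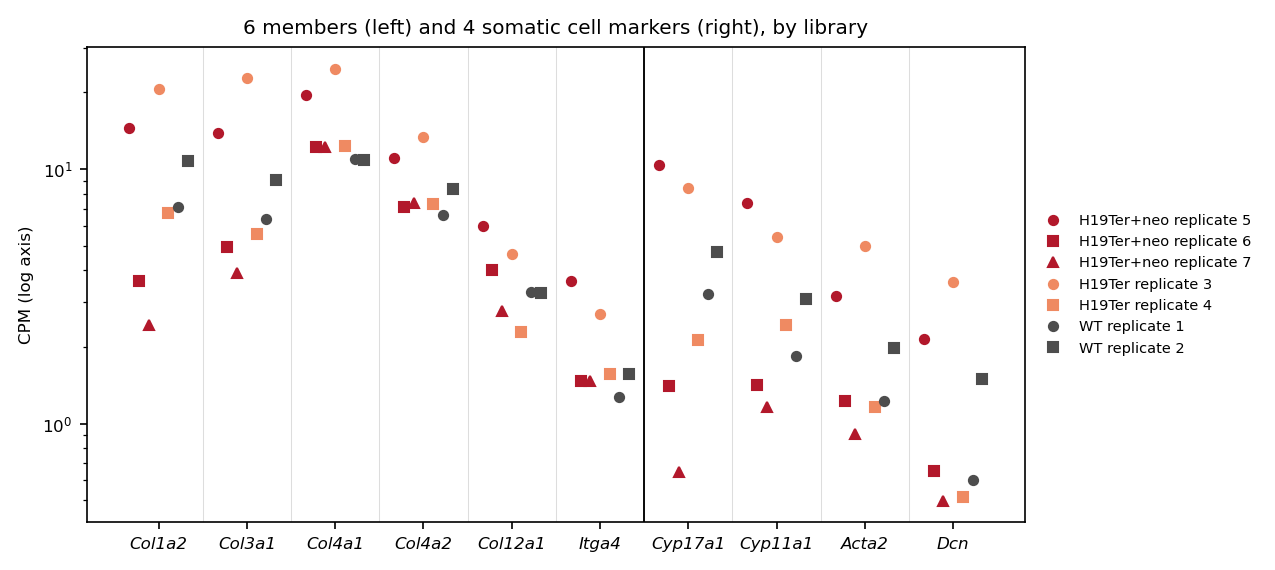
CPM by library (log axis) of the 6 members with the gap in H19Ter replicate 3 and H19Ter+neo replicate 5, and of 4 somatic markers (*Cyp17a1* and *Cyp11a1* of Leydig cells, *Acta2* and *Dcn* of peritubular and stromal cells). H19Ter+neo replicate 5 and H19Ter replicate 3 are the highest 2 of the 7 libraries for each gene shown. The 4 markers are only a part of their lists, and others differ. *Mfap4* was highest in WT (10.8 and 12.1 CPM, against 7.57 CPM in replicate 5 and 6.95 CPM in replicate 3). *Gli1* was lower in replicate 5 (5.13 CPM) than in replicate 6 (7.81 CPM), and *Fdx1* was lowest in replicate 3 (18.9 CPM).

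Of 9 collagens that decorate fibres, 5 were higher and 2 lower in H19Ter+neo (55.6% and 22.2%), and 4 higher and 1 lower in H19Ter (44.4% and 11.1%). Of 4 that span the membrane, 3 were higher and 0 lower in each mutant (75.0% and 0%). Shares over all genes were 27.7% and 26.7% in H19Ter+neo and 14.1% and 11.0% in H19Ter. The 5 fibre collagens higher in H19Ter+neo held without each library (55.6% of the 9, against 16.6% of all genes). In H19Ter 0 of the 4 did, against 4.14% of all genes. *Col9a1* was lower in both mutants. *Col25a1* (chromosome 3, 130131501 to 130599877), a membrane-spanning collagen of neurons and muscle, had 35.2, 36.4 and 45.2 CPM in H19Ter+neo, 30.2 and 34.6 CPM in H19Ter and 15.8 and 12.3 CPM in WT. It rose by 1.47 (SE 0.13, limma adjusted p = 2.38e-05) and 1.22 (SE 0.15, adjusted p = 0.00085), with every mutant library above WT. *Col22a1*, a collagen of tissue junctions, had 43.2, 47.1 and 48.3 CPM in H19Ter+neo, 31.3 and 35.3 CPM in H19Ter and 27.4 and 19.9 CPM in WT, in that order with no overlap. It rose by 0.98 (SE 0.12, adjusted p = 0.000135) in H19Ter+neo. In H19Ter (0.51, adjusted p = 0.0228) the call ended without WT replicate 2 (0.28, adjusted p = 0.183) or H19Ter replicate 3 (0.60, adjusted p = 0.0565) or 4 (0.42, adjusted p = 0.145), and between the mutants (0.47, adjusted p = 0.0187) without H19Ter replicate 3 (0.38, adjusted p = 0.154) or 4 (0.56, adjusted p = 0.0513). *Col16a1* had 4.17, 3.88 and 4.02 CPM in H19Ter+neo, 4.17 and 2.32 CPM in H19Ter and 1.54 and 1.86 CPM in WT. It rose by 1.23 (SE 0.23) in H19Ter+neo and 0.86 (SE 0.25, adjusted p = 0.0325) in H19Ter, the second ended without WT replicate 1 (0.73, adjusted p = 0.133) or 2 (1.0, adjusted p = 0.0936) or H19Ter replicate 3 (0.45, adjusted p = 0.209). Without H19Ter replicate 3 it was higher in H19Ter+neo than in H19Ter (0.78, adjusted p = 0.046).

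*Col9a1*, a chain of the collagen on cartilage fibres, had 2.43, 2.41 and 1.77 CPM in H19Ter+neo, 1.80 and 2.17 CPM in H19Ter and 5.36 and 4.42 CPM in WT. Every mutant library was below WT, by -1.15 (SE 0.20, limma adjusted p = 0.000848) in H19Ter+neo and -1.29 (SE 0.22, adjusted p = 0.00344) in H19Ter, and both calls held without each library. Its partner chain *Col9a2* had 2.92, 3.64 and 3.30 CPM in H19Ter+neo, 5.09 and 5.0 CPM in H19Ter and 4.27 and 4.42 CPM in WT. It was lower in H19Ter+neo than in H19Ter (-0.62, adjusted p = 0.0118, ended without H19Ter replicate 3 at -0.61, adjusted p = 0.0773, or 4 at -0.63, adjusted p = 0.0618). Against WT (-0.40, adjusted p = 0.0384) the call stood without H19Ter+neo replicate 6 and ended without WT replicates 1 and 2, H19Ter replicates 3 and 4 and H19Ter+neo replicates 5 and 7 (-0.43 to -0.32, adjusted p = 0.0527 to 0.152). The remaining chain *Col9a3* just missed the threshold in both (0.48, adjusted p = 0.0512, in H19Ter+neo and 0.62, adjusted p = 0.0504, in H19Ter). In H19Ter+neo it passed without H19Ter replicate 3 (0.48, adjusted p = 0.0451) or 4 (0.48, adjusted p = 0.0475) or H19Ter+neo replicate 6 (0.58, adjusted p = 0.0454), and in H19Ter without H19Ter+neo replicate 7 (0.62, adjusted p = 0.0489).

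*Col18a1* (chromosome 10, 77052178 to 77166548), a basement membrane collagen that releases endostatin, was the member called in opposite directions. It had 33.5, 34.8 and 33.9 CPM in H19Ter+neo, 55.4 and 53.7 CPM in H19Ter and 46.2 and 44.9 CPM in WT, with no overlap. It was lower in H19Ter+neo than in WT (-0.42, SE 0.07, limma adjusted p = 0.000532) and than in H19Ter (-0.68, SE 0.07, adjusted p = 0.00017), both held without each library. In H19Ter it was higher than in WT (0.26, SE 0.07, adjusted p = 0.0291), which ended without WT replicate 1 (0.28, adjusted p = 0.0737) or 2 (0.24, adjusted p = 0.163) or H19Ter replicate 3 (0.24, adjusted p = 0.142) or 4 (0.28, adjusted p = 0.106). *Col13a1*, a membrane collagen of cell junctions, had 8.82, 10.5 and 8.84 CPM in H19Ter+neo, 12.1 and 12 CPM in H19Ter and 10.6 and 9.5 CPM in WT. It was called only between the mutants (-0.37, adjusted p = 0.0394), which held without H19Ter+neo replicate 6 and ended without each other library (-0.38 to -0.32, adjusted p = 0.0506 to 0.17). It also ended with the GC content and length trends removed (-0.19, adjusted p = 0.231) and with those 2 genotypes fitted alone (-0.37, adjusted p = 0.0518). *Col26a1*, first described in testis and ovary, had 2.35, 2.7 and 3.13 CPM in H19Ter+neo, 3.64 and 2.37 CPM in H19Ter and 1.54 and 1.28 CPM in WT. It rose by 0.93 (SE 0.22) in H19Ter+neo, ended without WT replicate 2 (0.80, adjusted p = 0.0539), and by 1.05 (SE 0.25) in H19Ter, ended without WT replicate 2 (0.92, adjusted p = 0.104) or H19Ter replicate 3 (0.74, adjusted p = 0.0981).

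Further collagens were called in 1 or both mutants. *Col14a1*, a fibre-associated collagen, was higher by 0.70 (SE 0.15) in H19Ter+neo and by 0.51 (SE 0.16) in H19Ter, the second ended without WT replicate 1 (0.58, adjusted p = 0.0735) or 2 (0.43, adjusted p = 0.222), H19Ter replicate 3 (0.30, adjusted p = 0.266) or H19Ter+neo replicate 6 (0.51, adjusted p = 0.0601). The membrane-spanning *Col23a1* was higher by 0.91 (SE 0.18) and 0.89 (SE 0.19), the second ended without WT replicate 2 (0.88, adjusted p = 0.0582) or H19Ter replicate 3 (0.88, adjusted p = 0.0508) or 4 (0.90, adjusted p = 0.0521). *Col8a2*, a chain of the short-chain collagen of the eye and vessels, was higher in H19Ter+neo (0.44, SE 0.14), ended without WT replicate 2 (0.31, adjusted p = 0.186) or H19Ter+neo replicate 7 (0.42, adjusted p = 0.0585). *Col2a1*, the cartilage collagen, was higher in H19Ter (0.45, SE 0.15, adjusted p = 0.0492), and this ended without any library but H19Ter+neo replicate 5 (0.42 to 0.48, adjusted p = 0.0529 to 0.172). *Col5a3* and *Col12a1* passed in no comparison.

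Fibronectin had the highest mean log2 CPM of the members and was lower in H19Ter+neo than in both other genotypes. *Fn1* (chromosome 1, 71585520 to 71653200) had 510.0, 485.1 and 462.8 CPM in H19Ter+neo, 898.4 and 877.1 CPM in H19Ter and 930.8 and 1017.7 CPM in WT. Every H19Ter+neo library lay below every other library, with a difference of -1.0 (SE 0.06, limma adjusted p = 3.64e-06) from WT, a ratio of 0.499, and -0.87 (SE 0.06, adjusted p = 2.72e-05) from H19Ter. Both calls held without each library. H19Ter was not called against WT (-0.13, SE 0.07, adjusted p = 0.167), but was with the trends of GC content and length removed (-0.28, adjusted p = 0.0246). Per kb of exon *Fn1* stood at 41.6 CPM in H19Ter+neo, below *Lamb1* (50.6 CPM), and at 76.0 CPM in H19Ter and 83.4 CPM in WT, above *Lamb1*. The log2 ratio of *Fn1* to *Lamb1* was -0.05 ± 0.11 (SD, n = 3) in H19Ter+neo, 0.85 ± 0.05 (n = 2) in H19Ter and 0.95 ± 0.15 (n = 2) in WT.

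The 4 integrin subunits with the highest mean log2 CPM were lower in both mutants, and every other subunit called against WT was higher. *Itgb1* (chromosome 8, 128685654 to 128733200), the beta subunit shared by most matrix-binding integrins, had 182.0, 178.1 and 180.9 CPM in H19Ter+neo, 177.6 and 178.3 CPM in H19Ter and 209.0 and 218.1 CPM in WT. It was lower by -0.24 (SE 0.05, limma adjusted p = 0.00327) in H19Ter+neo and by -0.26 (SE 0.06, adjusted p = 0.011) in H19Ter, the second ended without WT replicate 2 (-0.23, adjusted p = 0.0991) or H19Ter replicate 3 (-0.26, adjusted p = 0.0663) or 4 (-0.27, adjusted p = 0.0695). *Itga6*, its laminin-binding partner and a surface marker of spermatogonia, had 68.2, 62.7 and 63.5 CPM in H19Ter+neo, 75.3 and 67.0 CPM in H19Ter and 83.8 and 84.8 CPM in WT. It was lower by -0.38 (SE 0.07, adjusted p = 0.0015) in H19Ter+neo. In H19Ter (-0.25, adjusted p = 0.0459) the call ended without WT replicates 1 and 2, H19Ter replicates 3 and 4 or H19Ter+neo replicate 6 (-0.33 to -0.16, adjusted p = 0.0549 to 0.294).

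*Itgb3* and *Itgb5*, which pair with *Itgav* into vitronectin and fibronectin receptors, fell while *Itgav* was not called. *Itgb3* had 31.3, 27.8 and 30.4 CPM in H19Ter+neo, 40.5 and 37.6 CPM in H19Ter and 52.9 and 55.7 CPM in WT. *Itgb5* had 24.0, 19.7 and 17.3 CPM in H19Ter+neo, 34.7 and 29.0 CPM in H19Ter and 41.1 and 45.3 CPM in WT. For both genes the 3 genotypes stood apart, with H19Ter+neo lowest and WT highest. In H19Ter+neo they fell by -0.87 (*Itgb3*, SE 0.08, limma adjusted p = 2.58e-05) and -1.10 (*Itgb5*, SE 0.13, adjusted p = 0.000105), held without each library. In H19Ter *Itgb3* fell by -0.48 (SE 0.09, adjusted p = 0.00486, ended without WT replicate 2 at -0.44, adjusted p = 0.0551). *Itgb5* fell there by -0.44 (SE 0.15, adjusted p = 0.048), ended without WT replicates 1 and 2, H19Ter replicates 3 and 4 or H19Ter+neo replicate 6 (-0.57 to -0.32, adjusted p = 0.0616 to 0.275). Between the mutants they were lower in H19Ter+neo by -0.39 (adjusted p = 0.00606) and -0.65 (adjusted p = 0.00572), both ended without H19Ter replicate 3 (-0.34, adjusted p = 0.0743, and -0.52, adjusted p = 0.075). *Itgav* ran from 21.1 to 26.4 CPM in H19Ter+neo, 24.8 to 29.5 CPM in H19Ter and 27.3 to 29.9 CPM in WT. It was at -0.24 (adjusted p = 0.0999) in H19Ter+neo and passed without replicate 5 (-0.31, adjusted p = 0.0456) and with the GC content and length trends removed (-0.36, adjusted p = 0.0159). The log2 ratio of *Itgb5* to *Itgav* was -0.26 ± 0.25 (SD, n = 3), 0.23 ± 0.00 (n = 2) and 0.59 ± 0.01 (n = 2) in H19Ter+neo, H19Ter and WT.

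Among integrin alpha subunits, 10 of 16 were higher and 1 lower in H19Ter+neo (62.5% and 6.25%, against 27.7% and 26.7% of all genes). In H19Ter 5 were higher and 1 lower (31.2% and 6.25%, against 14.1% and 11.0%). *Itga11* (chromosome 9, 62677826 to 62783982), a collagen receptor subunit of fibroblasts, had 7.89, 10.1 and 11.8 CPM in H19Ter+neo, 10.1 and 7.15 CPM in H19Ter and 3.22 and 2.56 CPM in WT. It rose by 1.76 (SE 0.20, limma adjusted p = 7.35e-05) and 1.56 (SE 0.22, adjusted p = 0.00156), with every mutant library above WT. *Itga5*, the alpha subunit of the main fibronectin receptor, had 2.53, 2.35 and 2.41 CPM in H19Ter+neo, 3.01 and 2.94 CPM in H19Ter and 1.32 and 1.64 CPM in WT. It rose by 0.71 (SE 0.18, adjusted p = 0.0064, ended without WT replicate 1 at 0.56, adjusted p = 0.0508) and 1.0 (SE 0.19, adjusted p = 0.00612). The collagen receptor subunit *Itga2*, at a mean log2 CPM of -0.24, was higher by 1.96 (SE 0.29) and 1.90 (SE 0.32), while its neighbour on chromosome 13, *Itga1*, was higher only in H19Ter+neo (0.57, adjusted p = 0.0292). The *Itga1* call ended without WT replicate 1 (0.63, adjusted p = 0.0791) or 2 (0.52, adjusted p = 0.149) or H19Ter+neo replicate 7 (0.54, adjusted p = 0.0587) or with the GC content and length trends removed (0.37, adjusted p = 0.133). *Itga1* passed in H19Ter without replicate 4 (0.67, adjusted p = 0.0363), and between the mutants without replicate 3 (0.68, adjusted p = 0.0289).

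The remaining called integrins are known from other cell types. *Itgb4*, which pairs with *Itga6* in epithelial anchoring plaques, was higher by 0.76 (SE 0.24, adjusted p = 0.0202) in H19Ter+neo, ended without WT replicate 2 (0.57, adjusted p = 0.16) or H19Ter+neo replicate 6 (0.71, adjusted p = 0.0559) or 7 (0.58, adjusted p = 0.0624). In H19Ter it was higher by 0.97 (SE 0.26, adjusted p = 0.0228), ended without WT replicate 2 (0.79, adjusted p = 0.162) or H19Ter replicate 3 (0.82, adjusted p = 0.124) or 4 (1.12, adjusted p = 0.0624). *Itgal*, a leukocyte subunit, had 5.65 to 7.70 CPM in H19Ter+neo, 5.18 to 5.48 CPM in H19Ter and 3.73 to 3.91 CPM in WT. It rose in H19Ter+neo (0.81, SE 0.15, adjusted p = 0.0013), and in H19Ter it did not pass (0.48, adjusted p = 0.058) but did without H19Ter+neo replicate 5 (0.48, adjusted p = 0.0312) or 7 (0.48, adjusted p = 0.0458). Between the mutants it passed without H19Ter+neo replicate 5 (0.46, adjusted p = 0.0401). *Itgb2*, its beta partner, had the lowest mean log2 CPM of the members (0.475 to 0.631 CPM in H19Ter+neo, 0.490 to 0.639 CPM in H19Ter and 0.157 to 0.290 CPM in WT). It was higher in H19Ter+neo (1.19, adjusted p = 0.0155, ended without WT replicate 2 at 0.81, adjusted p = 0.121, or H19Ter+neo replicate 6 at 1.08, adjusted p = 0.059) and in H19Ter (1.26, adjusted p = 0.0381), the second ended without WT replicate 2, H19Ter replicates 3 and 4 or H19Ter+neo replicate 6 (0.88 to 1.44, adjusted p = 0.0592 to 0.21). The macrophage and leukocyte list (4 of 8 markers with a value) summed to 6.14 to 8.68, 7.22 to 7.49 and 5.68 to 7.15 CPM in H19Ter+neo, H19Ter and WT, led by *Cd68*. Without *Cd68* it was at 2.55 to 4.36 CPM in H19Ter+neo, 1.86 to 1.93 CPM in H19Ter and 1.59 to 2.39 CPM in WT. The macrophage and myeloid genes *Adgre1* (1.94, SE 0.44, adjusted p = 0.00379, with 10 and 4 read pairs in WT) and *Fcer1g* (1.45, SE 0.30, adjusted p = 0.00246) were higher in H19Ter+neo than in WT. *Cd68* (-0.15, SE 0.15) and *Cx3cr1* (-0.03, SE 0.36) were not called there. In H19Ter none of the 4 was called against WT, and *Cx3cr1* (-0.64, SE 0.39) had both libraries below WT. The part of these cells in *Itgal* and *Itgb2* was not tested. *Itga3*, a laminin receptor subunit, was higher in H19Ter+neo (0.66, adjusted p = 0.0495), ended without WT replicate 2 (0.27, adjusted p = 0.444) or H19Ter+neo replicate 6 (0.62, adjusted p = 0.115) or 7 (0.61, adjusted p = 0.105). *Itga9* and *Itgb8* passed in no comparison.

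The genes named for integrin binding that code for no subunit behaved separately. *Itgb3bp*, a centromere protein also known as CENP-R, had 18.6, 16.9 and 16.9 CPM in H19Ter+neo, 12.3 and 11.8 CPM in H19Ter and 12.3 and 12.9 CPM in WT. It was higher in H19Ter+neo than in WT (0.47, SE 0.09, limma adjusted p = 0.00195) and than in H19Ter (0.53, SE 0.09, adjusted p = 0.00288), held without each library. *Itgb1bp1*, an inhibitor of integrin activation, passed in no comparison, and shares 16.91% of its exon bases with genes on the opposite strand.

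Of the PDGF receptors, *Pdgfrb* rose in both mutants and *Pdgfra* less. *Pdgfrb*, a receptor of pericytes and stromal cells, had 9.87, 9.18 and 13.0 CPM in H19Ter+neo, 13.9 and 12 CPM in H19Ter and 3.42 and 2.99 CPM in WT. Every mutant library was above both WT libraries, by 1.72 (SE 0.16, limma adjusted p = 2.68e-05) in H19Ter+neo and 2.0 (SE 0.18, adjusted p = 0.000136) in H19Ter, and both calls held without each library. Between the mutants it did not pass (-0.28, adjusted p = 0.21) and did without H19Ter+neo replicate 7 (-0.44, adjusted p = 0.0471). *Pdgfra*, which marks Leydig cell precursors and other mesenchyme in the testis, had 22.2, 16.1 and 21.4 CPM in H19Ter+neo, 20.4 and 17.2 CPM in H19Ter and 14.1 and 16.3 CPM in WT, and H19Ter+neo replicate 6 overlapped WT. It was higher in H19Ter+neo (0.38, SE 0.14, adjusted p = 0.0453), which held without replicate 6 and ended without each other library (0.28 to 0.49, adjusted p = 0.053 to 0.256), and did not pass in H19Ter (0.30, adjusted p = 0.18). The log2 ratio of *Pdgfrb* to *Pdgfra* was -0.90 ± 0.24 (SD, n = 3) in H19Ter+neo, -0.54 ± 0.02 (n = 2) in H19Ter and -2.24 ± 0.29 (n = 2) in WT.

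*Pdgfrb* was highest in replicate 7 of H19Ter+neo and in replicate 3 of H19Ter. Endothelial markers also stood higher in the mutants: the list (8 of 11 with a value) summed to 40.8 to 46.3 CPM in H19Ter+neo, 42.7 to 42.8 CPM in H19Ter and 28.6 to 28.8 CPM in WT. Called higher were 6 of 8 in H19Ter+neo and 3 of 8 in H19Ter, against 27.7% and 14.1% of all genes. The H19Ter+neo calls of *Tek*, *Cdh5* and *Emcn* and the H19Ter calls of *Tek* and *Robo4* ended when a library was left out. The list was led by *Flt1* (12.3 to 15.9 CPM in H19Ter+neo, 14.1 to 14.6 CPM in H19Ter and 8.2 to 8.92 CPM in WT). None of the 8 was at 0, but *Emcn* (4 and 18) and *Robo4* (3 and 13) had few read pairs in WT. The 1 of 7 erythroid markers with a value, *Alas2*, was at 4.34 to 5.82, 2.66 to 3.53 and 1.66 to 2.75 CPM in H19Ter+neo, H19Ter and WT. The part of vessel or blood cells in the higher collagens, integrins and *Pdgfrb* was not tested. Of 6 genes with a value among PDGF ligands and related receptors, *Pdgfc*, a ligand of *Pdgfra*, was higher in H19Ter+neo (1.15) and in H19Ter (0.93, adjusted p = 0.0346, ended without WT replicates 1 and 2, H19Ter replicate 3 or H19Ter+neo replicate 6, at 0.65 to 1.03, adjusted p = 0.0541 to 0.19). *Flt3*, a related receptor of blood cell precursors, was higher in H19Ter+neo (1.0, ended without WT replicate 2 at 0.83, adjusted p = 0.057), and *Kit*, the stem cell factor receptor of germ cells from the same receptor family, was lower (-0.89 in H19Ter+neo, and -0.72 in H19Ter, ended without WT replicate 2 at -0.58, adjusted p = 0.128, or H19Ter replicate 4 at -0.63, adjusted p = 0.0945). *Pdgfa* and *Pdgfb*, the classical ligands, passed in no comparison, though *Pdgfa* did in H19Ter+neo without replicate 5 (-0.37, adjusted p = 0.0491) and after thinning to equal depth (-0.36, adjusted p = 0.0463), and between the mutants with the same total per library (-0.43, adjusted p = 0.0328).

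The 23 members with a mean log2 CPM under 1 were mostly higher or not called: 15 higher and 1 lower in H19Ter+neo, 10 and 0 in H19Ter, and 1 and 0 between the mutants. Their shares called higher were 65.2% in H19Ter+neo and 43.5% in H19Ter, against 34.7% and 17.6% of all genes under 1. The shares called lower were 4.35% and 0%, against 12.5% and 2.92%. Between the mutants 4.35% were higher and 0% lower, against 7.49% and 7.1%. The lower one was *Itgb1bp2*, a muscle protein (-0.66, adjusted p = 0.0445), whose call held without H19Ter+neo replicate 6 and ended without each other library (-0.72 to -0.47, adjusted p = 0.0529 to 0.162). The one higher between the mutants was *Col19a1*, a fibre-associated collagen, at 1.32, 0.953 and 1.34 CPM in H19Ter+neo, 0.507 and 0.335 CPM in H19Ter and 0.112 and 0.382 CPM in WT. It was higher by 2.33 (SE 0.44, limma adjusted p = 0.00134) against WT. Against H19Ter (1.46, adjusted p = 0.0318) the call ended without H19Ter replicate 3 (1.74, adjusted p = 0.0743) or 4 (1.18, adjusted p = 0.175) or H19Ter+neo replicate 5 (1.39, adjusted p = 0.0641) or 7 (1.38, adjusted p = 0.0773). Its tail-to-tail neighbour on chromosome 1 is *Col9a1*, which fell.

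Among genes of the matrix between cells more were higher than lower in each mutant, while genes that process collagen were called at shares nearer those of all genes (27.7% higher and 26.7% lower in H19Ter+neo, 14.1% and 11.0% in H19Ter). Of 31 collagen processing genes, 10 were higher and 7 lower in H19Ter+neo (32.3% and 22.6%) and 6 and 1 in H19Ter (19.4% and 3.23%), with medians of 0.27 and 0.20. *Serpinh1*, the collagen chaperone of the endoplasmic reticulum, fell in H19Ter+neo (-1.23, limma adjusted p = 0.000177). In H19Ter (-0.89, adjusted p = 0.00749) the call of *Serpinh1* ended without WT replicate 2 (-0.82, adjusted p = 0.0744) or H19Ter replicate 4 (-0.77, adjusted p = 0.0661), and it was lower in H19Ter+neo than in H19Ter only without H19Ter+neo replicate 5 (-0.53, adjusted p = 0.00556). *Plod2*, a collagen lysine hydroxylase, was higher in H19Ter+neo than in WT (0.38, adjusted p = 0.00123), and *P4hb* and *Ppib*, which act on new collagen chains, passed in no comparison. Of 28 interstitial matrix genes, 15 were higher and 2 lower in H19Ter+neo (53.6% and 7.14%) and 13 and 1 in H19Ter (46.4% and 3.57%), with medians of 0.79 and 0.69. The fibrillin gene *Fbn2* (0.45 in H19Ter+neo and 0.68 in H19Ter) and *Ltbp1*, which holds TGF-beta in the matrix (1.34 and 1.06), were higher in both mutants. *Fbn1* and the proteoglycan gene *Vcan* passed in no comparison of the fit to all libraries, but did in alternatives. *Fbn1* passed above WT in H19Ter without H19Ter replicate 4 (1.10, adjusted p = 0.014) or H19Ter+neo replicate 5 (0.67, adjusted p = 0.0369), with 2 genotypes fitted alone (0.67, adjusted p = 0.0176) and with the same total per library (0.75, adjusted p = 0.0444). It passed below H19Ter in H19Ter+neo without the same libraries (-1.06, adjusted p = 0.00933, and -0.77, adjusted p = 0.0223), with limma-voom (-0.68, adjusted p = 0.0489) and with the same total per library (-0.70, adjusted p = 0.0359). *Vcan* passed above WT in H19Ter without H19Ter+neo replicate 5 (0.70, adjusted p = 0.0308) and with 2 genotypes fitted alone (0.70, adjusted p = 0.0122), and below H19Ter in H19Ter+neo without that replicate (-0.91, adjusted p = 0.01). Of 17 matrix turnover genes, 7 were higher and 3 lower in H19Ter+neo (41.2% and 17.6%) and 5 and 0 in H19Ter (29.4% and 0%), with medians of 0.38 and 0.40. The gelatinase *Mmp2* was higher in H19Ter+neo (1.61) and H19Ter (1.33). *Mmp11* was lower in H19Ter+neo (-0.36, ended without WT replicate 2 at -0.29, adjusted p = 0.134).

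Of 15 partners of laminin and collagen IV in basement membranes, 4 were higher and 6 lower in H19Ter+neo (26.7% and 40%, against 27.7% and 26.7% of all genes). In H19Ter it was 2 and 2 (13.3% each, against 14.1% and 11.0%), and between the mutants 1 and 5 (6.67% and 33.3%, against 12.5% and 15.2%). Those with the highest mean were all lower in H19Ter+neo than in WT, with *Smoc1* at -0.46, perlecan (*Hspg2*) at -0.46, agrin (*Agrn*) at -0.58 and nidogen 2 (*Nid2*) at -0.80. The *Hspg2* call ended without WT replicate 1 (-0.32, adjusted p = 0.178). In H19Ter, *Nid2* was lower (-0.48, adjusted p = 0.0393), ended without WT replicates 1 and 2 or H19Ter replicates 3 and 4 (-0.60 to -0.36, adjusted p = 0.0544 to 0.263), and the other named partners did not pass. Of 27 integrin adhesion partners, 6 were higher and 9 lower in H19Ter+neo (22.2% and 33.3%), 8 and 4 in H19Ter (29.6% and 14.8%), and 2 and 12 between the mutants (7.41% and 44.4%). The lower share between the mutants was farthest from that of all genes. Filamin (*Flna*), which crosslinks actin and binds beta subunits, fell in H19Ter+neo (-1.39), and in H19Ter (-0.62, adjusted p = 0.0145), the second ended without WT replicate 1 (-0.63, adjusted p = 0.056) or 2 (-0.61, adjusted p = 0.0996) or H19Ter replicate 4 (-0.50, adjusted p = 0.112). Alpha-actinin 1 (*Actn1*) was lower in H19Ter+neo than in WT (-0.65) and than in H19Ter (-0.59). The focal adhesion kinase *Ptk2* was lower in H19Ter+neo (-0.18, ended without WT replicate 2 at -0.15, adjusted p = 0.124). Vinculin (*Vcl*) was lower in H19Ter+neo than in H19Ter (-0.31), and higher in H19Ter than in WT (0.22, adjusted p = 0.0272, ended without WT replicates 1 and 2 or H19Ter replicates 3 and 4, at 0.19 to 0.25, adjusted p = 0.0695 to 0.163). Of 16 other matrix receptors, 5 were higher and 6 lower in H19Ter+neo (31.2% and 37.5%), 3 and 2 in H19Ter (18.8% and 12.5%), and 2 and 5 between the mutants (12.5% and 31.2%). Dystroglycan (*Dag1*, -0.54), a laminin receptor, and syndecan 4 (*Sdc4*, -0.27, ended without WT replicate 1 at -0.24, adjusted p = 0.062) were lower and *Rpsa* (0.46) higher in H19Ter+neo, and *Ddr1*, a collagen receptor kinase, passed only in alternatives, in H19Ter with 2 genotypes fitted alone (0.24, adjusted p = 0.0247) and in H19Ter+neo with the GC content and length trends removed (0.25, adjusted p = 0.0319).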

How the data were processed

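Total RNA-seq of 7 libraries was grouped by the genotype in the labels. The authors trimmed reads with Trim Galore 0.6.0 and aligned them to mm10 with STAR 2.7.8 (gene counts); deepTools and edgeR stand in the submitters' processing notes with no stated role. Which annotation release and which strand column were counted is not given in these sources. The deposited values are log2 CPM with a mean prior count of 2 reads. Undoing the log gave whole read pairs for 100% of values (tolerance 1e-06), which gave depth (37.5 to 87.3 M). The CPM keep the library scaling of the deposited values. Counting error is largest for low members in the shallower H19Ter and WT libraries.

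Limma 3.58.1 (R 4.3.3) with a mean-variance trend was fitted to the log2 values of all 20643 genes and all 7 libraries, with genotype as the only term, two-sided tests and Benjamini-Hochberg adjustment over all genes. Gene positions, exon length and GC content came from GENCODE vM21 (GRCm38, the build of mm10).

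The members and lists were chosen with earlier results of these data known. Members with a mean log2 CPM of at least 1 could be named. The 10 largest rises and 10 largest falls past the threshold in each comparison, and *Fn1*, *Pdgfra* and *Pdgfrb*, have every library given. Members under 1 were named as partner chains or where a count of 5 or fewer singled them out. *Itga2*, *Itga4* and *Itgb2* were named after their values were seen. Of each pathway list, up to 4 genes with the highest mean were named, and *Pdgfc* as a count of 5 or fewer. Alternatives were a fit of 2 genotypes only, limma-voom on the recovered read pairs, the same total per library, median-ratio scaling, pseudocounts of 0.5 and 2 CPM, a filter at a mean log2 CPM of 0, thinning to equal depth, removal of GC content and length trends, and leaving out each library. A single member is counted in the totals and not reported here by itself.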

Additional observations from a re-analysis of the deposited data

How the results depend on the processing

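Members higher in H19Ter than in WT numbered 36, against 23 with limma-voom, whose background was 8.19% higher and 6.79% lower, and 18 to 38 with 1 library left out (18 without WT replicate 2 and 19 without H19Ter replicate 3, with 5.34% and 7.12% of all genes higher). Members lower in H19Ter numbered 7 (11.0% of all genes), against 3 with limma-voom (6.79%) and 3 with the same total per library (6.34%). They numbered 4 after thinning to equal depth (9.68%) and 4 to 7 with 1 H19Ter+neo replicate left out (9.87% to 13.3%). For H19Ter+neo against WT, 47 were higher (34 to 46 with 1 library left out) and 13 lower (8 to 12, the 8 without WT replicate 2). For H19Ter+neo against H19Ter, 7 were higher (12.5% of all genes), against 11 with GC content and length trends removed (10.7%), and 9 were lower (15.2%). With 1 H19Ter+neo replicate left out, 5 to 6 were higher (9.65% to 11.2%) and 9 to 10 lower (12.6% to 15.0%). Each fit without a WT or H19Ter replicate called fewer members, and fewer of all genes, in every comparison and direction. Such a fit leaves a lone library in that genotype. Without H19Ter replicate 3 and H19Ter+neo replicate 5 together, added after seeing the data, the members higher and lower were 24 and 6 in H19Ter against WT (9.67% and 7.48% of all genes), 46 and 12 in H19Ter+neo against WT (27.0% and 26.2%), and 5 and 6 between the mutants (5.01% and 7.34%). The cause of these changes was not tested. Scaling to the same total per library moved the share of higher genes among all calls to 72.6% in H19Ter against WT, from 56.2%, and to 31.9% between the mutants, from 45.3%, and among members to 93.2%, from 83.7%, and to 40%, from 43.8%. Over the members with a mean log2 CPM of at least 1, 92 single results were called, which over 17 alternatives makes 1564 repeats, of which 1352 were called again and 212 were not. Of 1496 repeats of results that were not called, 45 passed, and 0 called values changed direction. Among the named members, limma-voom ended the H19Ter calls against WT of *Col11a1*, *Col11a2*, *Col14a1*, *Col16a1*, *Col24a1*, *Col2a1*, *Col4a6*, *Col6a3*, *Itga6*, *Itgb2*, *Itgb4*, *Itgb5* and *Lama2*. It also ended the H19Ter+neo calls of *Col1a1*, *Col5a2*, *Itga3*, *Lama3* and *Pdgfra*, and that of *Col6a4* between the mutants. Removing GC content and length trends ended the H19Ter calls of *Col14a1*, *Col18a1*, *Col2a1*, *Col4a6* and *Lama2*, the H19Ter+neo calls of *Col1a1*, *Col9a2*, *Itga1* and *Pdgfra*, and those between the mutants of *Col13a1* and *Lama5*. No paired analysis was possible because the genotypes share no replicate numbers. With 2 libraries in H19Ter and WT, leaving out 1 leaves a lone library that is assumed to vary like the others.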
